A study of Mus musculus with 16 samples.

Results

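Mitosis and cytokinesis were followed at the RNA level through 55 genes chosen from a list of named symbols: the kinases and cyclins that start and end mitosis, and the parts of the spindle, the kinetochore, the condensed chromosome and the cleavage furrow. Each symbol was matched to its Ensembl gene ID. All 55 were found among the 51912 gene IDs of the table, and all 55 passed the filter on low counts that left 20159 genes for testing. They were divided by function into 9 mitotic kinases, 10 cyclins and regulators of mitotic entry and exit, 9 spindle proteins and motors, 10 kinetochore and centromere proteins, 7 condensin and mitotic chromosome proteins, and 10 proteins of cytokinesis and the chromosomal passenger complex. The list names what dividing cells need and not a cell type: these RNAs rise in any cycling cell, and in ventricle they can come from cardiomyocytes, fibroblasts, endothelial cells and blood cells alike.

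The samples were full ventricles, taken from above and below the ligation 7 days after surgery on postnatal day 1. There were 4 groups of 4 libraries: wild type after sham surgery (WT SH), Lrrc10-/- after sham surgery (KO SH), wild type after myocardial infarction (WT MI) and Lrrc10-/- after myocardial infarction (KO MI). MI was made by ligating the left anterior descending artery. Sham mice went through the same hypothermic anesthesia, dissection and chest closure, with the heart not exposed and no ligation. Wild type mice were C57BL/6J, and the Lrrc10-/- mice carried a whole-body deletion on a C57BL/6 background, with no statement in the sources used here that the controls were littermates. LRRC10 is a cardiomyocyte protein, and the heart of a newborn mouse can regrow muscle after injury. The question put to these libraries was whether the RNAs of cell division differ without LRRC10 after injury.

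A dividing cell enters mitosis when cyclin B binds and activates CDK1. The Aurora and Polo-like kinases then build the spindle, condensin and topoisomerase II compact the chromosomes, and kinetochores attach them to microtubules. When all are attached, CDC20 activates the anaphase-promoting complex, which destroys cyclin B and securin, and the chromosomal passenger complex with Aurora B, the central spindle and the anillin ring carry out cytokinesis. Cardiomyocytes that complete the first part and not the last become binucleated, as most mouse cardiomyocytes do soon after birth.

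Libraries held 33783874 to 57470159 expected counts, of which the mitochondrial ribosomal RNA mt-Rnr2 took 29.8% to 37.6%. Its share was 35.72% to 36.28% in WT SH and 37.13% to 37.59% in KO SH, without overlap. After MI it was 34.05% to 34.77% in WT MI and 29.83% to 35.04% in KO MI. Lrrc10 was at 26.3 to 35.6 CPM (the depth-scaled count, here on the TMM-scaled library total) in the 8 wild type libraries and had 0 counts in all 8 Lrrc10-/- libraries. Xist, the RNA of the inactive X chromosome, was high in 0 of 4 WT SH libraries and in 2 of 4 libraries of each other group, although the groups were described as sex-balanced. Comparisons with WT SH are therefore also given with a sex term and, as values with no test chosen after the data were seen, within libraries of low Xist. Libraries are named by their replicate numbers, 1 to 4 in 3 groups and 1, 2, 3 and 7 in KO MI, and values are given in that order. Nothing in the labels says that libraries of a group came from separate litters, so p-values rest on the spread between these libraries.

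The summed level of the 55 genes was lowest in KO SH and higher after MI in both genotypes. The sum was 1591, 1467, 1532 and 1778 CPM in WT SH and 1414, 1369, 1257 and 1267 CPM in KO SH. After MI it was 2007, 2116, 1795 and 1973 CPM in WT MI and 1823, 2417, 2068 and 1789 CPM in KO MI. Every KO SH library lay below every WT SH library, every MI library lay above every sham library, and the WT MI and KO MI libraries overlapped. The means were 1592 ± 134 CPM in WT SH, 1327 ± 76.99 CPM in KO SH, 1972 ± 133 CPM in WT MI and 2025 ± 289.8 CPM in KO MI (SD, n = 4 each). The sum was therefore 1.24 times as high after MI as after sham in wild type and 1.53 times as high in Lrrc10-/- ventricles. Between genotypes the ratio of KO to WT was 0.833 after sham and 1.03 after MI. Mki67 alone made up 318 ± 31.9 CPM of the WT SH sum, and without Hjurp the ratios moved to 0.846 after sham and 1.04 after MI. Scaled instead to the raw total without mt-Rnr2, the ratio of KO to WT was 0.876 after sham and 1.04 after MI. On that scale the highest KO SH library, at 2167 CPM, lay just below the lowest WT SH library, at 2169 CPM. Without Hjurp the sham groups overlapped there, with KO SH up to 2130 CPM and WT SH from 2096 CPM. In whole tissue, fewer dividing cells and less of each RNA per cell cannot be told apart.

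**Figure D1:**
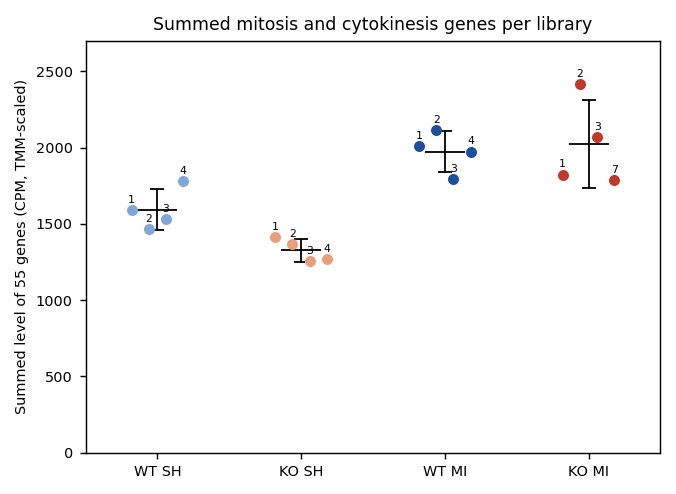
Summed level of the 55 genes in each library, in CPM of the TMM-scaled total, with the library's replicate number beside each point and the mean ± SD of each group in black. The 4 KO SH libraries, at 1257 to 1414 CPM, sit below the 4 WT SH libraries, at 1467 to 1778 CPM, and the KO MI libraries spread from 1789 to 2417 CPM around the WT MI libraries.

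Most genes were highest in the same library. KO MI 2 held the highest value of all 16 libraries for 46 of the 55 genes, and among the KO MI libraries it was highest for 54, the exception being Spc24. At the other end, KO SH 3 was lowest of all libraries for 26 genes and KO SH 4 for 18. Among the WT SH libraries, WT SH 4 was highest for 46 genes, and among WT MI libraries WT MI 3 was lowest for 42. Levels within a group thus moved up and down together across the list, and the 55 genes do not give 55 independent readings of a group.

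**Figure D2:**
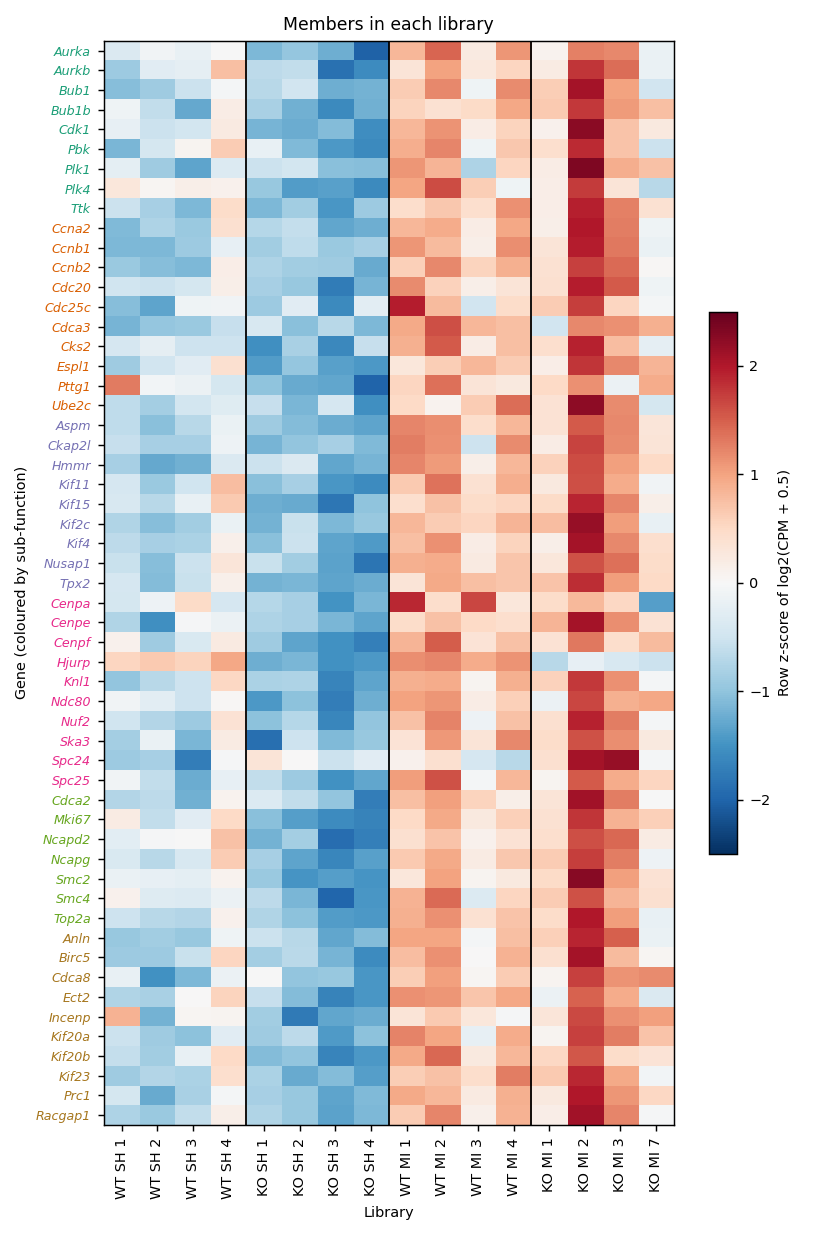
Level of each of the 55 genes in the 16 libraries as a z-score of log2(CPM + 0.5) within the row, with gene names coloured by function. The column of KO MI 2 is the darkest red, the KO SH columns are mostly blue, and the row of Hjurp is blue or near white in all 8 Lrrc10-/- libraries and red in all 8 wild type libraries.

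Levels per length ranged widely. In WT SH the mean level per kilobase of exon was highest for Mki67, the coat protein of mitotic chromosomes, at 30.9 CPM per kb, followed by the condensin subunit Smc4 at 19.6, Top2a at 10.7 and cyclin A2 (Ccna2) at 9.66 CPM per kb. The lowest were Cdc25c, the phosphatase that activates CDK1, at 0.227 CPM per kb and Ska3, a kinetochore-microtubule coupler, at 0.419 CPM per kb. Expected counts reached 8691 to 23339 for Mki67 and only 40 to 147 for Cdc25c, whose intervals were the widest of the list.

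After MI the wild type ventricle showed a higher fitted level of all 55 genes, with a median log2 fold change of 0.37 for WT MI against WT SH. The median over all genes tested lay within about 0.01 of 0 in each comparison. A gene was called when the Benjamini-Hochberg adjusted p of edgeR's quasi-likelihood test was under 0.1 and the log2 fold change was at least 0.5 in size. By that rule 4 of 55 genes rose, against 2.13% of all genes called higher, and 0 fell, against 0.645% called lower. The 4 were Ccnb1, Cdca3, Hmmr and Kif2c. That count depended on single libraries: it was 16 without WT SH 4, 13 without WT MI 3 and 3 without WT SH 2 or WT MI 2. Most of the list lay below the minimum fold: 25 of 55 had an adjusted p under 0.1 in the same test with no minimum fold, against 3.11% of all genes. Leaving out single libraries of these groups moved the 25 to between 8 (without WT MI 2 or WT SH 2) and 35 (without WT SH 4). It was 10 without WT MI 1 or WT SH 3, 12 without WT MI 4 or WT SH 1, and 39 without KO MI 2, a library outside the comparison that enters the shared estimate of spread. An unadjusted p under 0.05 was found for 46, against 8.55% of all genes in this direction, and in 26 genes every WT MI library lay above every WT SH library, against 6.16% of all genes. By function, the adjusted p was under 0.1 in 7 of 10 cytokinesis genes, 7 of 9 spindle genes, 4 of 10 cyclins and regulators, 4 of 10 kinetochore genes, 2 of 9 kinases and 1 of 7 condensin and chromosome genes. With a sex term in the fit, 3 genes were called and 8 had an adjusted p under 0.1, against 2.2% of all genes in that fit. Among libraries with low Xist alone, 2 WT MI against 4 WT SH, all 55 genes had the higher mean in WT MI, with a median log2 ratio of 0.28.

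In Lrrc10-/- ventricles the fitted difference between MI and sham had a larger median and nearly the whole list was called. For KO MI against KO SH the median log2 fold change was 0.63, all 55 genes were higher, and 49 rose past both limits, against 5.31% of all genes called higher. None of the 55 fell, against 2.11% called lower. The adjusted p was under 0.1 in all 55, against 10.2% of all genes, and in 49 genes every KO MI library lay above every KO SH library, against 7.68% of all genes. The 6 genes that passed the adjusted p and not the minimum fold were Hjurp at 0.49, Cdca3 at 0.43, Spc24 at 0.42, Smc4 at 0.39, Cenpa at 0.34 and Ncapd2 at 0.32 on the log2 scale. The cytokinesis group was the most uniform, with all 10 genes called at log2 fold changes of 0.60 to 0.68, and all 9 kinases and all 9 spindle genes were called too. The count rested in part on 1 library: without KO MI 2 it was 33 of 55, and without KO MI 2 and KO MI 7 together it was 43.

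Markers of other cells also differed between MI and sham libraries, with calls for some in Lrrc10-/- ventricles only. The counts called higher stand beside 5.31% of all genes in KO MI against KO SH and 2.13% in WT MI against WT SH. The summed level of 12 skeletal muscle markers was 119 CPM in KO MI 2 and 189.5 CPM in KO MI 7, against 9.37 to 37.4 CPM in the other 14 libraries. Macrophage markers summed to 41.5 to 49.7 CPM in KO SH and 49.3 to 109.6 CPM in KO MI, the highest in KO MI 3. In that comparison 7 of 8 were called higher. In wild type they summed to 50.5 to 58.6 CPM after sham and 60.4 to 75.9 CPM after MI, with 0 of 8 called. Erythroid markers summed to 32.3 to 40.1 CPM in KO SH and 25.5 to 105 CPM in KO MI, the highest in KO MI 2. Of these, 4 of the 5 tested were called higher. In wild type they summed to 44.2 to 71.2 CPM after sham and 50.1 to 58.5 CPM after MI, with 0 of 5 called. Neutrophil markers, 4 of 4 tested called higher in both genotypes, summed to 1.28 to 1.79 CPM in WT SH, 6.097 to 20.8 CPM in WT MI, 2.65 to 3.31 CPM in KO SH and 5.79 to 12.1 CPM in KO MI. Fibroblast markers ranged from 2196 to 2572 CPM in WT SH to 2666 to 3115 CPM in WT MI and from 2054 to 2258 CPM in KO SH to 2820.0 to 3161 CPM in KO MI. Cardiomyocyte markers, at 22510 to 36460 CPM, and endothelial markers, at 730 to 966 CPM, were lower in mean after MI in both genotypes. Thymocyte markers stayed at or below 4.04 CPM and B cell markers at or below 6.65 CPM. None of the matched markers was at 0 in every library. Their part in the results was not tested.

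After sham surgery the list was lower in Lrrc10-/- ventricles. The median log2 fold change between the sham groups, KO SH against WT SH, was -0.21, and 51 of 55 genes lay below 0. Only Hjurp and Pttg1 fell past both limits, 2 of 55 against 2.53% of all genes called lower, and 0 rose, against 2.48% called higher. An adjusted p under 0.1 in that direction was reached by 15 of 55, against 7.22% of all genes. Leaving out single libraries of these groups moved the 15 to between 8 (without KO SH 4) and 14, with 10 without WT SH 4 or KO SH 3, and the median moved to -0.13 without WT SH 4. Unadjusted, 23 had a p under 0.05, against 12.3% of all genes in this direction, and in 21 genes every KO SH library lay below every WT SH library, against 10.2% of all genes. The condensin and chromosome group had the largest share: 5 of its 7 genes had an adjusted p under 0.1, namely Mki67, Smc2, Smc4, Ncapg and Ncapd2, and in 6 of 7 the groups did not overlap, beside the same 7.22% and 10.2% of all genes. Whether this share differs from that of the other functions was not tested. In the other groups the counts were 3 of 10 kinetochore genes, 2 of 9 kinases, 2 of 10 cyclins and regulators, 2 of 10 cytokinesis genes and 1 of 9 spindle genes. Among libraries with low Xist alone, 2 KO SH against 4 WT SH, 53 of 55 genes had the lower mean in KO SH, with a median log2 ratio of -0.26, and with a sex term in the fit 4 genes were called and 21 had an adjusted p under 0.1, against 7.31% of all genes lower in that fit.

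Markers of other cells differed between the sham groups as well. Macrophage markers summed to 50.5 to 58.6 CPM in WT SH and 41.5 to 49.7 CPM in KO SH without overlap. Of these 8, 7 were fitted below 0 and 2 were called lower, against 2.53% of all genes. On the raw total without mt-Rnr2 their sums overlapped, at 74.2 to 86.7 and 64.4 to 77.4 CPM. Endothelial markers, with 0 called, summed to 943 to 966 CPM in WT SH and 867 to 912 CPM in KO SH. On the raw total without mt-Rnr2 these overlapped too. Erythroid markers summed to 44.2 to 71.2 CPM in WT SH, above all KO SH libraries, with 4 of 5 tested below 0 and 1 called lower. Of 8 cardiomyocyte markers 7 lay below 0 and 4 had an adjusted p under 0.1 with 0 called, and their sum was 25820 to 36460 CPM in WT SH and 25540 to 26310 CPM in KO SH. Of 8 fibroblast markers 7 lay below 0 and 1 had an adjusted p under 0.1. Neutrophil markers went the other way, with 2 of 4 tested called higher in KO SH, against 2.48% of all genes. The part of these cells in the lower values of the list was not tested.

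Post-MI the genotypes were close. For KO MI against WT MI the median log2 fold change was 0.06, with 41 genes above 0 and 14 below. That direction rested on 1 library: without KO MI 2 the median was -0.048 and 16 of 55 lay above 0, while without WT MI 3 it was 0.011 with 31 above. Hjurp alone was called, as lower: 1 of 55 against 1.16% of all genes called lower. None was called higher, against 0.57% of all genes, and DESeq2 called the same number. Hjurp, Spc24 and Cenpa were the 3 genes with an unadjusted p under 0.05, against 12.4% of all genes. None of the 9 kinases, the 10 cyclins and regulators, the 9 spindle genes, the 7 condensin and chromosome genes or the 10 cytokinesis genes had an unadjusted p under 0.05. A p over the limit does not show equal levels: the fitted 95% intervals of the kinases, for example, ran from -0.36 (Plk4) to 0.50 (Plk1) on the log2 scale.

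The difference between these genotype effects was tested as an interaction, the KO effect after MI minus the KO effect after sham. It was above 0 for 54 of 55 genes, with a median of 0.26, but the adjusted p stayed above 0.1 in edgeR's test for all of them, so that 0 of 55 were called, against 0.0248% of all genes. At an unadjusted p under 0.05 there were 18 of 55, against 13.6% of all genes. DESeq2 called 3 of 55, against 1.05% of all genes. The lowest adjusted p was that of Mki67, 0.148, at a log2 difference of 0.51 (SE 0.12, 95% interval 0.26 to 0.76), followed by Incenp, the scaffold of the chromosomal passenger complex, at a log2 difference of 0.56 and the condensin subunit Smc2 at 0.49, both with an adjusted p of 0.156. A larger MI difference in Lrrc10-/- ventricles was thus seen in the values of nearly every gene and in the call of none. Without KO MI 7 the test called 4 of 55, against 4.2% of all genes, with a median of 0.33. Without KO MI 2 it called 0 and the median was 0.16, with 49 genes above 0. Without WT SH 4 it called 0 and the median was 0.19, with 51 above 0. A sex term in the fit gave 0 calls and a median of 0.32, with 54 above 0.

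**Figure D3:**
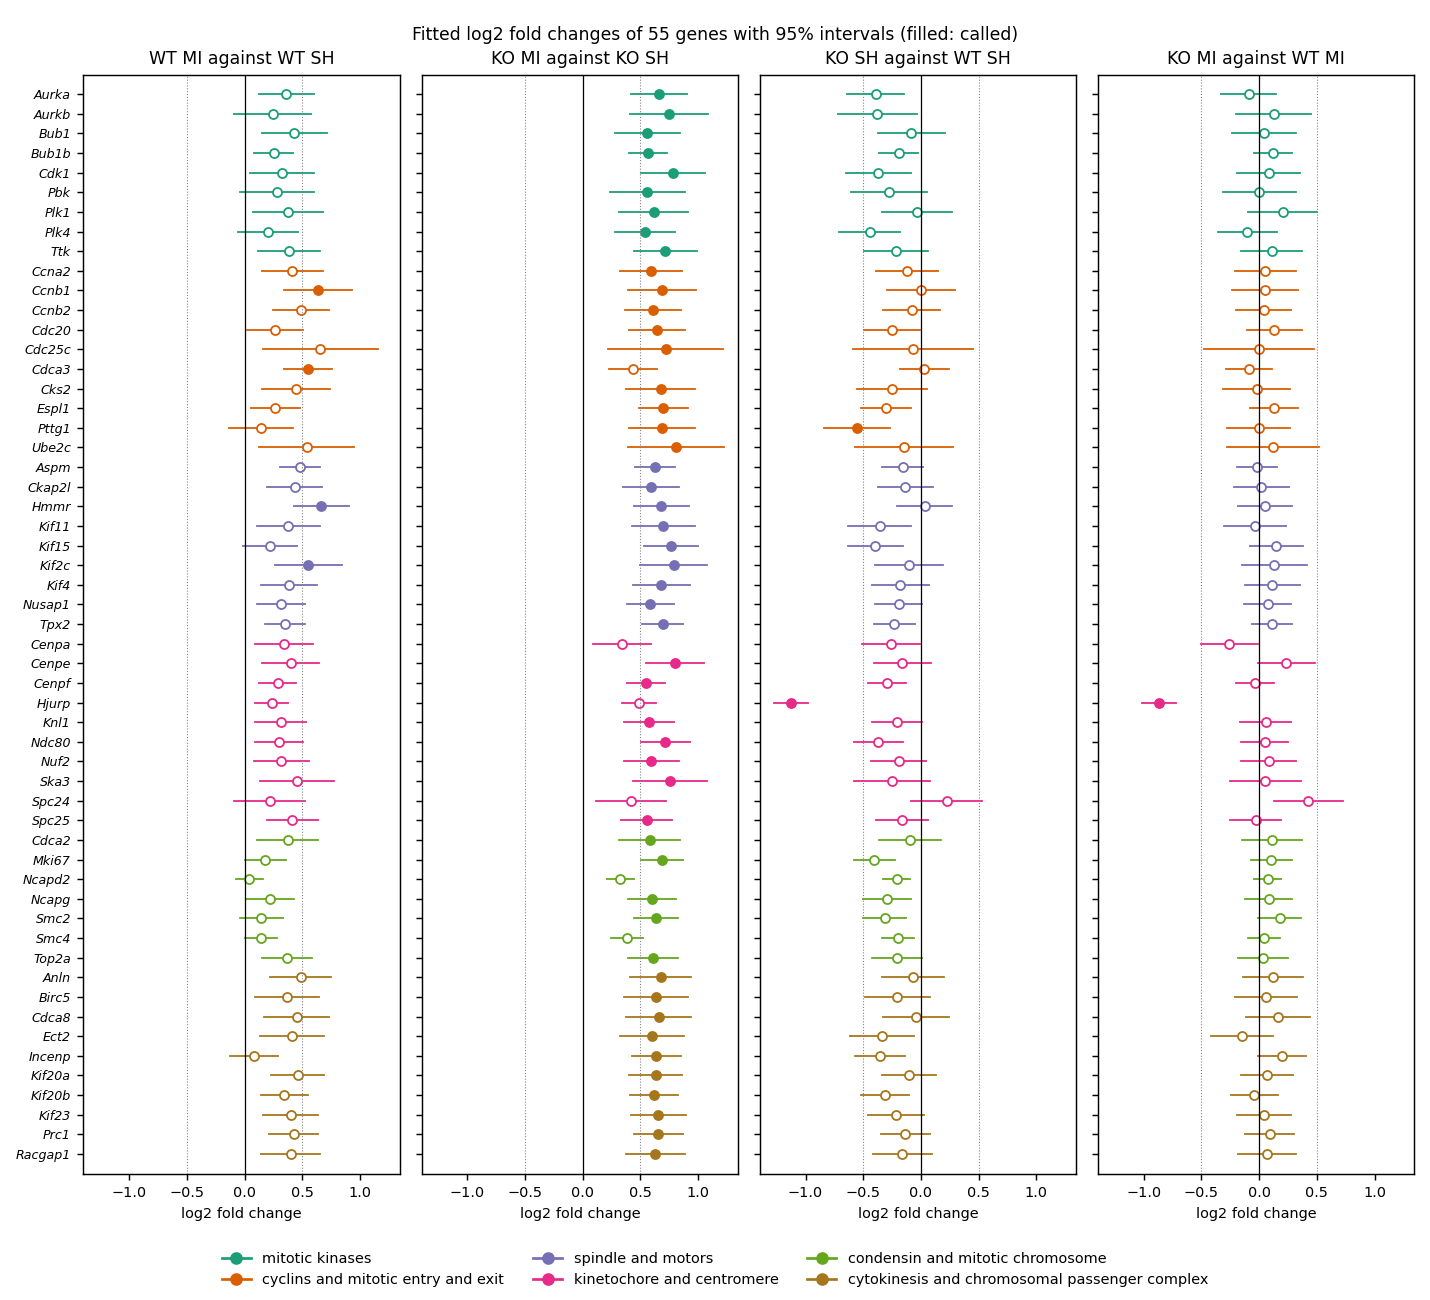
Fitted log2 fold change of each gene with its 95% interval in the 4 comparisons, coloured by function, filled where called, with dotted lines at the minimum fold of 0.5. All points lie right of 0 in the MI comparisons, 51 of 55 lie left of 0 for KO SH against WT SH, and Hjurp stands alone at -1.12 and -0.87 in the genotype comparisons.

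Promoters of mitotic genes share short sequences that the DREAM, B-MYB and FOXM1 complexes and NF-Y are known to act through: the cell cycle genes homology region (CHR, searched as TTTGAA) and the CCAAT box (searched as CCAAT), both on either strand. RefSeq promoters on GRCm38.p6, 250 bases before to 50 after the start, were at hand for 45 of the 55 genes, as 47 promoters. TTTGAA stood in 38 of the 47, 80.85%, and in 17.89% of all 32851 promoters. CCAAT stood in 35, 74.47%, against 37.41% of all, and both stood in 31, 65.96%, against 6.953%. The 9 genes with no TTTGAA in this window were Birc5, Bub1, Ccnb1, Cenpe, Cks2, Nuf2, Nusap1, Plk4 and Pttg1, and a missing match says only that these letters are not in this window. The promoters of genes followed most closely below are shown from 120 bases before to 30 after the start, in transcript direction, with the matches in capitals, as examples of the shared letters. Aurkb had no entry. Hjurp was added to the set after its values were seen.
Cdc20: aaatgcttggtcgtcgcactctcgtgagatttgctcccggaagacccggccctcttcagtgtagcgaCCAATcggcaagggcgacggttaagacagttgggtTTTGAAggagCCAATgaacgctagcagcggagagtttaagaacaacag
Ccnb1: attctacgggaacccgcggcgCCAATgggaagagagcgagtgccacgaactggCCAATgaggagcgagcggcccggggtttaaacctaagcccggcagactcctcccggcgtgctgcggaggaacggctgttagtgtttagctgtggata
Plk1: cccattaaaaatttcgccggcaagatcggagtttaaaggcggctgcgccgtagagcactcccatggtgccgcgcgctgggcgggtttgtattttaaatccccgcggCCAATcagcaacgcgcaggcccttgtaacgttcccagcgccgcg
Ccnb2: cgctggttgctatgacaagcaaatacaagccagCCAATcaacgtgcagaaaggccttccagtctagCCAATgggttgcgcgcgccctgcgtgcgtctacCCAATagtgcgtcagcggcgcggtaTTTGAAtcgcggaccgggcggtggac
Hjurp: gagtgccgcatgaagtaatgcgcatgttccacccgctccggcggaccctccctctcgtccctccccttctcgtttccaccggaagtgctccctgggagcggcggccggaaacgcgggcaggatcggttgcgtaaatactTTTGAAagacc
The stretches are chr4:118437314-118437463 for Cdc20, chr13:100786457-100786606 for Ccnb1, chr9:70421525-70421674 for Ccnb2 and chr1:88277550-88277699 for Hjurp, all on the minus strand, and chr7:122159315-122159464 for Plk1 on the plus strand. Cdc20 held TTTGAA between its CCAAT boxes, Ccnb2 held 3 CCAAT boxes ahead of a TTTGAA that began 5 bases after the start, and Ccnb1 held CCAAT boxes alone. Plk1 had its TTTGAA from base 31 after the start, just past the printed stretch. Hjurp had a TTTGAA from base 20 after the start and no CCAAT box in the printed stretch.

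**Figure D4:**
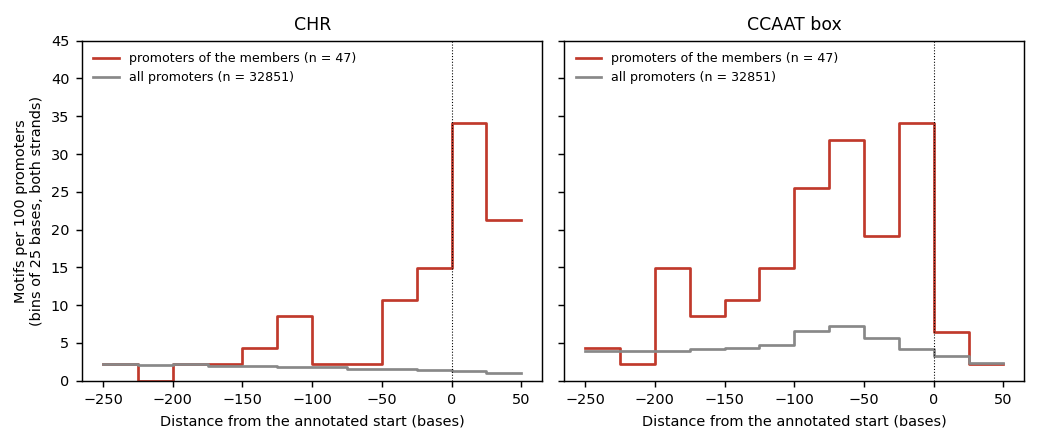
Number of CHR (left) and CCAAT (right) matches on either strand per 100 promoters in bins of 25 bases, by distance from the annotated start, for the 47 promoters of the list (red) and all 32851 promoters (grey). Matches of the list crowd just after the start for the CHR and in the 100 bases before it for CCAAT.

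The mitotic kinases were taken first. Aurkb, Aurora B, is the enzyme of the chromosomal passenger complex and lies at chr11:68936467-68944764 (GRCm39, plus strand). It was at 4.65, 5.45, 5.55 and 7.09 CPM in WT SH, 4.96, 5.02, 3.61 and 3.91 in KO SH, 6.35, 7.55, 6.28 and 6.71 in WT MI and 6.16, 9.15, 8.33 and 5.62 in KO MI. KO SH overlapped WT SH, KO MI overlapped WT MI, and in Lrrc10-/- ventricles all MI libraries lay above all sham libraries. The log2 fold change was 0.13 for KO MI against WT MI (SE 0.15, 95% interval -0.20 to 0.45, edgeR Benjamini-Hochberg adjusted p = 0.832) and -0.38 for KO SH against WT SH (adjusted p = 0.171). Aurkb rose after MI in Lrrc10-/- ventricles, by 0.75 (SE 0.16, edgeR adjusted p = 0.00721), and had a log2 fold change of 0.24 in wild type (adjusted p = 0.477). Its interaction was a log2 difference of 0.50 (95% interval 0.03 to 0.98, edgeR adjusted p = 0.336).

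Cdk1, the kinase that drives entry into mitosis, was at 10.5, 9.704, 9.87 and 11.7 CPM in WT SH, 8.296, 8.13, 8.45 and 7.501 in KO SH, 13.6, 14.7, 11.6 and 12.7 in WT MI and 11.4, 19.3, 13.2 and 11.8 in KO MI. All KO SH libraries were below all WT SH libraries, at a log2 fold change of -0.37, under the minimum fold. Its adjusted p was just over the limit (edgeR adjusted p = 0.106, exact permutation p = 0.02857, the smallest that 4 against 4 allows). The range of KO MI enclosed all WT MI values, at a log2 fold change of 0.09, and Cdk1 rose after MI by 0.78 in Lrrc10-/- ventricles (edgeR adjusted p = 0.0021). Aurka, the Aurora kinase of centrosomes, was at 6.33, 6.74, 6.61 and 6.87 CPM in WT SH, 5.298, 5.48, 5.17 and 4.28 in KO SH, 8.32, 9.62, 7.26 and 8.86 in WT MI and 7.01, 9.19, 9.08 and 6.64 in KO MI. It stood lower in all KO SH than in all WT SH libraries (log2 fold change -0.39, edgeR adjusted p = 0.0504, under the minimum fold) and higher in all MI than in all sham libraries of the same genotype. Its interval for KO MI against WT MI was -0.33 to 0.15.

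Plk1, the Polo-like kinase that acts from centrosome maturation to cytokinesis, had the highest KO MI against WT MI value of the kinases and was at 6.84, 5.91, 5.35 and 6.67 CPM in WT SH, 6.402, 6.51, 5.696 and 5.67 in KO SH, 9.27, 8.76, 6.05 and 8.17 in WT MI and 7.52, 12.2, 8.87 and 8.54 in KO MI. The high value was that of KO MI 2, and the groups overlapped (log2 fold change 0.20, SE 0.14, edgeR adjusted p = 0.635). Plk4, the kinase that starts centriole duplication, had the lowest value of the kinases, at 13.6, 12.9, 13.2 and 13.1 CPM in WT SH, 10.5, 9.53, 9.597 and 9.13 in KO SH, 15.7, 17.97, 14.5 and 12.5 in WT MI and 13.2, 18.4, 13.7 and 11.1 in KO MI. In sham ventricles it was lower in every KO SH library, with a log2 fold change of -0.44 (SE 0.12, edgeR adjusted p = 0.0379), and post-MI it was -0.10 with overlapping groups. The checkpoint kinases Bub1, Bub1b and Ttk and the kinase Pbk were between log2 fold changes of 0.00 and 0.12 for KO MI against WT MI and between 0.56 and 0.72 for KO MI against KO SH, where all 4 rose.

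Among cyclins and regulators of entry and exit, Cdc20, which activates the anaphase-promoting complex, lies at chr4:118290098-118294610 (GRCm39, minus strand). It was at 7.33, 7.27, 7.41 and 8.34 CPM in WT SH, 6.83, 6.67, 5.65 and 6.37 in KO SH, 10.3, 9.12, 8.37 and 8.64 in WT MI and 8.803, 12.1, 11.04 and 7.95 in KO MI. The KO SH libraries were all below the WT SH libraries, the KO MI libraries spread on both sides of the WT MI libraries, and MI libraries were above sham libraries of the same genotype. Between genotypes the log2 fold change was -0.25 after sham (SE 0.12, edgeR adjusted p = 0.21) and 0.13 post-MI (SE 0.11, 95% interval -0.11 to 0.37, edgeR adjusted p = 0.727). Cdc20 rose after MI by a log2 fold change of 0.65 in Lrrc10-/- ventricles (edgeR adjusted p = 0.00259) and had 0.26 in wild type (adjusted p = 0.252).

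Cyclin B1 (Ccnb1), the partner of CDK1, lies at chr13:100915153-100923116 (GRCm39, minus strand) and was at 10.98, 10.99, 11.6 and 14.1 CPM in WT SH, 11.8, 12.5, 11.6 and 11.9 in KO SH, 19.97, 18.4, 15.5 and 20.2 in WT MI and 16.2, 25.04, 21.1 and 14.2 in KO MI. Sham libraries of the genotypes were level, and every MI library lay above every sham library. Ccnb1 rose in wild type, by a log2 fold change of 0.64 (SE 0.14, 1.55-fold, edgeR adjusted p = 0.0194), and in Lrrc10-/- ventricles, by 0.69 (SE 0.14, 1.61-fold, edgeR adjusted p = 0.00528). The genotype difference was a log2 fold change of 0.00 after sham and 0.05 post-MI (95% interval -0.24 to 0.34), and the interaction was 0.05. The study named Cdc20, Ccnb1 and Aurkb from these same libraries, so these values are no independent reading of them. It placed them in a cluster with expression specific to Lrrc10-/- ventricles post-MI and described Aurkb as downregulated. That cluster was made from levels scaled within each gene, a measure unlike the fold change used here. Here the log2 fold change of KO MI against WT MI was 0.13 for Cdc20, 0.05 for Ccnb1 and 0.13 for Aurkb, with none called. The study's account of cytokinesis also rested on staining and nucleus counts of cardiomyocytes. In Lrrc10-/- hearts post-MI it found fewer with symmetrical Aurora B, more binucleated ones and no significant difference in phospho-histone H3. LRRC10 from a viral vector raised symmetrical Aurora B there. Protein in cardiomyocytes was not measured here, only RNA of whole ventricle.

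Cdca3, an adaptor that helps remove a brake on mitotic entry, was at 5.65, 5.88, 5.92 and 6.36 CPM in WT SH, 6.58, 5.78, 6.22 and 5.69 in KO SH, 8.56, 9.75, 8.37 and 8.25 in WT MI and 6.49, 8.997, 8.88 and 8.48 in KO MI. It rose in wild type by a log2 fold change of 0.55 (edgeR adjusted p = 0.0058), with no overlap of WT MI and WT SH, and it was the only gene with an interaction below 0, at -0.12 (95% interval -0.41 to 0.17). Pttg1, securin, which holds separase in check until anaphase, showed another pattern. It was at 8.13, 5.88, 5.78 and 5.39 CPM in WT SH, 4.71, 4.43, 4.38 and 3.698 in KO SH, 6.81, 8.26, 6.48 and 6.34 in WT MI and 6.75, 7.83, 5.78 and 7.46 in KO MI. Sham Lrrc10-/- libraries were lower than all others, and the remaining 3 groups overlapped. Pttg1 fell by 0.55 on the log2 scale in KO SH against WT SH (SE 0.14, edgeR adjusted p = 0.0203), a call that was lost without WT SH 1 or without KO SH 4, and was at a log2 fold change of -0.00 for KO MI against WT MI. It rose after MI by a log2 fold change of 0.69 in Lrrc10-/- ventricles (edgeR adjusted p = 0.00438) and had 0.14 in wild type (adjusted p = 0.644), with an interaction of 0.55 (95% interval 0.15 to 0.94, edgeR adjusted p = 0.228). Its target Espl1, separase, was at a log2 fold change of -0.30 in sham (edgeR adjusted p = 0.0845) with no overlap of groups. Ccnb2, Ccna2, Cks2, Cdc25c and Ube2c, the E2 enzyme of the anaphase-promoting complex, were between log2 fold changes of -0.02 and 0.12 post-MI, and all 5 rose in KO MI against KO SH.

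In the spindle group, Hmmr, a spindle assembly protein, had the largest called difference of the list in wild type and was at 41.4, 36.7, 37.4 and 47.01 CPM in WT SH, 44.9, 46.9, 36.5 and 37.95 in KO SH, 71.5, 68.4, 53.6 and 64.5 in WT MI and 60.3, 79.7, 67.9 and 58.8 in KO MI. MI libraries lay above sham libraries in both genotypes, and the genotypes overlapped after either surgery. The rise was a log2 fold change of 0.67 in wild type (SE 0.11, 1.59-fold, edgeR adjusted p = 0.00376) and 0.68 in Lrrc10-/- ventricles (edgeR adjusted p = 0.0017), so that the interaction was 0.02 (95% interval -0.32 to 0.35). Kif2c, a kinesin that shortens microtubules to correct wrong attachments, was at 5.98, 5.48, 5.78 and 7.04 CPM in WT SH, 5.298, 6.29, 5.38 and 5.67 in KO SH, 9.19, 8.72, 8.501 and 9.23 in WT MI and 9.05, 13.2, 9.75 and 6.98 in KO MI. WT MI was tight and above all sham libraries, KO MI was wide with KO MI 2 apart, and Kif2c rose in wild type (log2 fold change 0.55, edgeR adjusted p = 0.039) and in Lrrc10-/- ventricles (0.79, edgeR adjusted p = 0.00243).

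The motors Kif11 and Kif15 both keep the spindle poles apart and marked the lowest and highest KO MI against WT MI values of the group. Kif15 was at 16.2, 15.2, 16.99 and 20.6 CPM in WT SH, 13.4, 13.3, 11.7 and 14.1 in KO SH, 19.5, 21.03, 19.7 and 20.1 in WT MI and 19.8, 27.4, 23.4 and 18.3 in KO MI. All KO SH libraries were below all WT SH libraries (log2 fold change -0.39, edgeR adjusted p = 0.0399), and KO MI overlapped WT MI (0.15, adjusted p = 0.66). Kif11 was at 42.9, 37.8, 42.2 and 57.6 CPM in WT SH, 36.7, 38.8, 33.3 and 32.2 in KO SH, 56.1, 66.6, 52.4 and 59.6 in WT MI and 50.7, 71.2, 60 and 46.6 in KO MI. Its highest KO SH library reached just above the lowest WT SH library, at a log2 fold change of -0.36 (edgeR adjusted p = 0.107), and post-MI it was at -0.04. Both rose in KO MI against KO SH, by a log2 fold change of 0.76 and 0.70. Aspm, Ckap2l, Kif4, Nusap1 and Tpx2, which focus, bundle or start spindle microtubules, rose there too, by a log2 fold change of 0.58 to 0.69. In wild type Aspm had a log2 fold change of 0.48 at an edgeR adjusted p of 0.00442, just under the minimum fold.

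The kinetochore and centromere group held the one clear genotype difference. Hjurp, the chaperone that places the centromeric histone CENP-A on chromatin after mitosis, lies at chr1:88186586-88205405 (GRCm39, minus strand). It was at 47.5, 49.5, 47.6 and 55.9 CPM in WT SH and 23.99, 24.6, 21.4 and 22.1 in KO SH. Post-MI it was at 60.1, 61.6, 55.1 and 59.1 CPM in WT MI and 29.4, 35.5, 32.9 and 31.3 in KO MI. All 8 Lrrc10-/- libraries, at 21.4 to 35.5 CPM, lay below all 8 wild type libraries, at 47.5 to 61.6 CPM. Hjurp fell by 1.12 on the log2 scale in KO SH against WT SH (SE 0.07, 95% interval -1.27 to -0.97, a ratio of 0.459, edgeR adjusted p = 5.87e-08) and by 0.87 in KO MI against WT MI (SE 0.07, 95% interval -1.02 to -0.72, a ratio of 0.547, edgeR adjusted p = 1.49e-06). Both calls held in all 8 fits that left out a library of the compared groups. Hjurp still differed between MI and sham like its neighbours on the list, with a log2 fold change of 0.24 in wild type and 0.49 in Lrrc10-/- ventricles. Of 21 other tested genes within 1 Mb of Hjurp, 2 were called lower post-MI, Efhd1 and Gm38312, against 1.16% of all genes. In sham the same 2 were called lower, against 2.53% of all genes, and Gm38365 was called higher, against 2.48%. The lowest log2 fold change among the 21 was -3.61 post-MI and -1.58 in sham, further from 0 than that of Hjurp. These neighbours were counted after the values were seen.

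Cenpa, the histone that HJURP carries, had a log2 fold change of -0.26 after sham (95% interval -0.51 to -0.01, edgeR adjusted p = 0.208) and -0.26 post-MI (95% interval -0.51 to -0.01, adjusted p = 0.384). Its levels were 21.7, 23.1, 25.9 and 21.8 CPM in WT SH and 20.5, 20.1, 17.7 and 18.9 in KO SH and 33.9, 25.6, 32.5 and 24.9 CPM in WT MI and 25.8, 27.6, 26.04 and 18.1 in KO MI. It was lower in every KO SH library than in any WT SH library, and KO MI overlapped WT MI. Spc24, a subunit of the NDC80 complex that holds microtubules, had the highest KO MI against WT MI value of the whole list and was at 4.88, 4.97, 4.09 and 5.901 CPM in WT SH, 6.36, 5.97, 5.299 and 5.59 in KO SH, 6.08, 6.48, 5.44 and 5.13 in WT MI and 6.49, 9.19, 9.39 and 5.89 in KO MI. KO MI 2 and KO MI 3 were the highest of all libraries and the other KO MI libraries lay at or within the edge of WT MI (log2 fold change 0.42, SE 0.14, 95% interval 0.13 to 0.72, edgeR adjusted p = 0.169). Without KO MI 7 it was called, at 0.53. Its partners did not share this: Ndc80 was at a log2 fold change of 0.05, Nuf2 at 0.08 and Spc25 at -0.03 post-MI. In sham Ndc80 was at a log2 fold change of -0.37 (edgeR adjusted p = 0.0339) with no overlap of groups, and Cenpf, a kinetochore protein of the corona, was at -0.30 (adjusted p = 0.0267). The motor Cenpe rose with Knl1 and Ska3 in KO MI against KO SH, by a log2 fold change of 0.57 to 0.80.

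In the condensin and chromosome group, Mki67, the standard marker of cycling cells, was at 333, 282, 302 and 354 CPM in WT SH, 259, 241, 232 and 228 in KO SH, 354, 387, 336 and 361 in WT MI and 345, 459.5, 382 and 361 in KO MI. Every KO SH library was below every WT SH library, and KO MI and WT MI overlapped. The log2 fold change of KO SH against WT SH was -0.40 (SE 0.09, a ratio of 0.756, edgeR adjusted p = 0.0083), under the minimum fold. Post-MI it was a log2 fold change of 0.10 (95% interval -0.07 to 0.28), and Mki67 rose after MI by 0.69 in Lrrc10-/- ventricles (edgeR adjusted p = 0.000448) against 0.18 in wild type (adjusted p = 0.3).

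Top2a, topoisomerase II alpha, which untangles sister chromatids, was at 95.97, 92.4, 91.8 and 109 CPM in WT SH, 91.5, 86.3, 79.8 and 79.4 in KO SH, 128, 135, 116 and 124 in WT MI and 117, 161, 132 and 103 in KO MI. Sham libraries of the genotypes did not overlap, at a log2 fold change of -0.21 (edgeR adjusted p = 0.236, exact permutation p = 0.02857), and post-MI the fold change was 0.03, the lowest of this group. Smc2, the condensin subunit at the other end of the group's order post-MI, was at 36.01, 35.7, 35.5 and 37.7 CPM in WT SH, 31.3, 28.2, 28.8 and 28.3 in KO SH, 39.1, 44.7, 37.5 and 38.8 in WT MI and 40.5, 56.2, 44.7 and 39.6 in KO MI. KO SH lay below WT SH throughout (log2 fold change -0.31, edgeR adjusted p = 0.0399), and KO MI overlapped WT MI (0.18, adjusted p = 0.432). The other condensin subunits Smc4, Ncapg and Ncapd2 were at a log2 fold change of -0.20, -0.30 and -0.21 in sham and at 0.04, 0.08 and 0.07 post-MI. Their MI differences in wild type were small, from log2 fold changes of 0.04 to 0.22, and only Top2a of this group reached an adjusted p under 0.1 there (0.37, edgeR adjusted p = 0.0606).

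For cytokinesis itself, Anln, the anillin scaffold of the contractile ring, was at 29.9, 30.5, 30 and 36.7 CPM in WT SH, 33, 31.8, 27.5 and 28.9 in KO SH, 47.9, 47.8, 37.2 and 45.2 in WT MI and 43.5, 59.8, 54.1 and 36.1 in KO MI. Genotypes overlapped in sham and post-MI, and within each genotype every MI library lay above every sham library. Anln had a log2 fold change of 0.49 in wild type (edgeR adjusted p = 0.0445), just under the minimum fold, and rose by 0.68 in Lrrc10-/- ventricles (adjusted p = 0.00316). Its genotype difference was a log2 fold change of -0.07 in sham and 0.12 post-MI (95% interval -0.14 to 0.38).

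Ect2, the exchange factor that activates RhoA at the furrow, had the lowest post-MI value of the group and was at 11.8, 11.6, 14.1 and 16.1 CPM in WT SH, 12.3, 10.9, 9.41 and 9.89 in KO SH, 18.5, 18.3, 16.6 and 17.8 in WT MI and 13.6, 20.1, 17.6 and 12.9 in KO MI. Here KO MI 1 and KO MI 7 lay below all WT MI libraries and KO MI 2 above them (log2 fold change -0.15, 95% interval -0.42 to 0.12, edgeR adjusted p = 0.732). Incenp had the highest and was at 15.5, 10.5, 13.3 and 13.3 CPM in WT SH, 11.1, 9.37, 10.3 and 10.4 in KO SH, 13.9, 14.9, 13.9 and 13.1 in WT MI and 13.9, 17.9, 16.3 and 15.9 in KO MI. Groups overlapped post-MI (0.20, edgeR adjusted p = 0.432), and in sham the value was a log2 fold change of -0.36 (adjusted p = 0.0411). The remaining passenger complex subunits, Birc5 (survivin) and Cdca8 (borealin), were at a log2 fold change of 0.06 and 0.16 post-MI. The central spindle proteins Prc1, Kif23, Racgap1, Kif20a and Kif20b were between -0.04 and 0.09 post-MI and rose in KO MI against KO SH by a log2 fold change of 0.62 to 0.66. In wild type they had a log2 fold change of 0.35 to 0.46, all 5 with an adjusted p under 0.1 and none past the minimum fold.

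**Figure D5:**
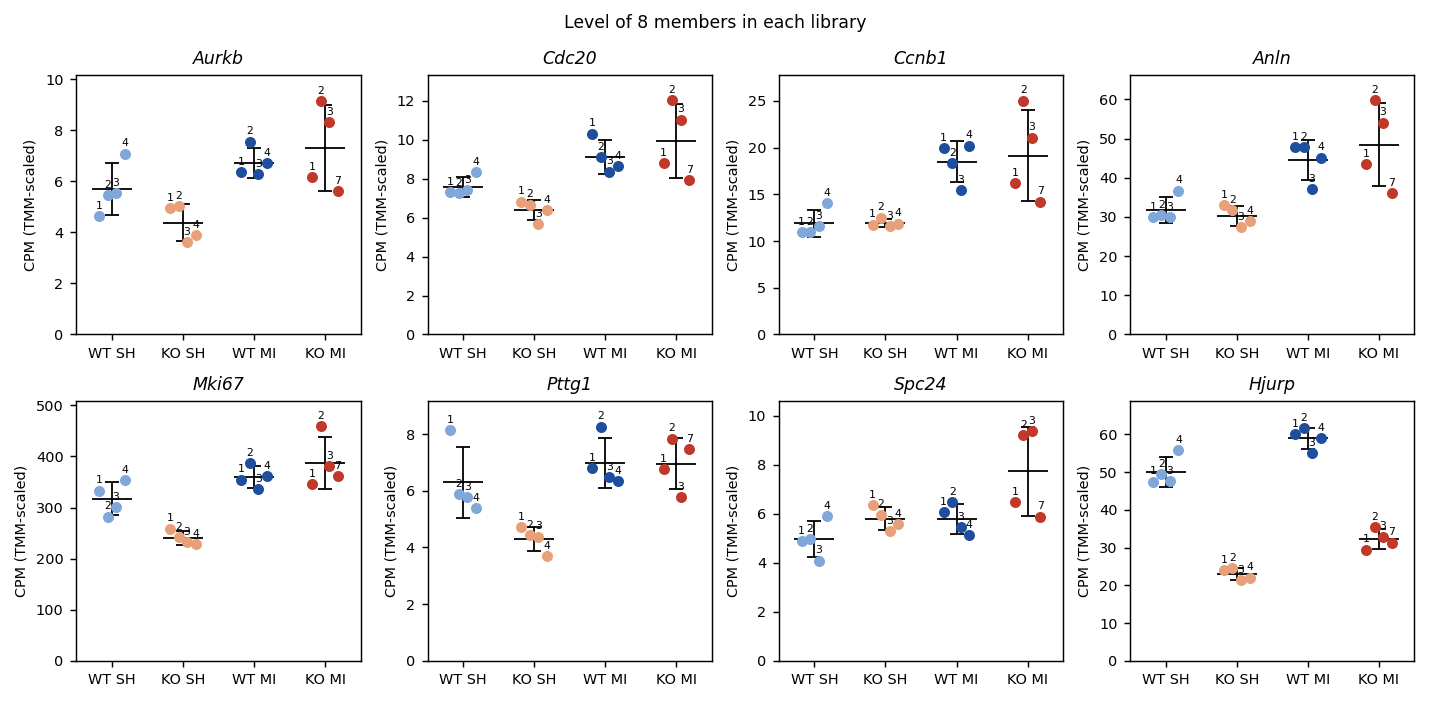
Level of 8 genes in each library, in CPM of the TMM-scaled total, with replicate numbers beside the points and the mean ± SD of each group in black. Aurkb, Cdc20, Ccnb1, Anln and Mki67 overlap between WT MI and KO MI, Pttg1 is low in KO SH alone, Spc24 is high in KO MI 2 and KO MI 3, and Hjurp is lower in all Lrrc10-/- libraries.

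By share of the sum the functions kept nearly the same order in all libraries, but some ranges did not overlap between groups. Condensin and chromosome genes took 39.4% to 41.5% of the summed CPM in WT SH and 36.9% to 38.1% in WT MI, against 38.6% to 39.7% in KO SH and 38.0% to 39.6% in KO MI. Cytokinesis genes took 12.9% to 13.7% in WT SH, 14.0% to 14.2% in KO SH, 13.7% to 14.5% in WT MI and 14.0% to 14.8% in KO MI. Kinases took 4.81% to 5.27% in every library. Spindle genes took 15.7% to 16.8% in WT SH, 16.8% to 17.6% in KO SH, 17.4% to 18.1% in WT MI and 17.4% to 18.2% in KO MI. Kinetochore and centromere genes took 19.1% to 19.7% in WT SH, 18.1% to 18.5% in KO SH, 19.0% to 19.6% in WT MI and 17.4% to 18.3% in KO MI. The summed spindle genes lay below the summed kinetochore genes in 14 libraries and above them in KO MI 2 and KO MI 3. Hjurp is one of the kinetochore and centromere genes. The shares give longer and more abundant RNAs greater weight.

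Other genes of cell division were read from separate lists. Of all genes, 5.31% were called higher in KO MI against KO SH and 2.13% in WT MI against WT SH. Between genotypes 0.57% were called higher and 1.16% lower post-MI, and 2.48% higher and 2.53% lower in sham. An adjusted p under 0.1 in sham was reached by 7.22%, as lower. An unadjusted p under 0.05 was found in 26.2% for KO MI against KO SH and 16.5% for WT MI against WT SH. Between genotypes it was found in 12.4% post-MI and 22.8% in sham, in either direction. Of 41 further mitosis genes, 26 rose in KO MI against KO SH (median log2 fold change 0.56), 4 rose in WT MI against WT SH (median 0.36) and 0 were called between genotypes, with medians of 0.04 post-MI and -0.12 in sham, and with 0 post-MI and 7 sham genes at an unadjusted p under 0.05. The lowest adjusted p post-MI among them was that of the centromere protein Cenpu (log2 fold change 0.28, edgeR adjusted p = 0.438), then the abscission protein Cep55 (0.23, adjusted p = 0.447) and Cenpm (0.27, adjusted p = 0.496). Of 13 tested transcription regulators of mitotic genes, 5 rose in KO MI against KO SH, and post-MI between genotypes Lin52 was at a log2 fold change of -0.19, E2f8 at 0.15 and Foxm1, the activator of late cell cycle genes, at 0.12, none called in edgeR (0 with an unadjusted p under 0.05). In sham, 9 of these 13 lay below 0, with a median of -0.18, 4 had an adjusted p under 0.1 and 1, E2f2, named after its values were seen, was called lower. Of 17 DNA replication genes, 3 rose in KO MI against KO SH (median 0.30), 0 were called in wild type (median 0.05, 2 with an unadjusted p under 0.05), and post-MI the lowest adjusted p between genotypes was that of Rrm2 (log2 fold change -0.31, edgeR adjusted p = 0.316). In sham, 15 of the 17 replication genes lay below 0, with a median of -0.22, 5 with an adjusted p under 0.1 and 0 called (8 with an unadjusted p under 0.05). Of the 41 further mitosis genes 33 lay below 0 in sham, 1 of them with an adjusted p under 0.1, against 7.22% of all genes. The general contractile ring and abscission genes, actomyosin and membrane proteins that all cells use, had 0 of 15 called in any of the 4 comparisons by edgeR, with 11 of 15 below 0 and a median of -0.14 in sham, with medians of 0.19 for KO MI against KO SH and 0.01 for WT MI against WT SH and with 10 and 3 genes at an unadjusted p under 0.05.

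Some of these genes share positions on the genome with other genes. In GENCODE, 19 of the 55 genes overlap another gene with more than 0.1 times their own mean count, in all 19 on the opposite strand, and for Ncapd2 also a small nucleolar RNA on its own strand. They include Cdc20 (with Elovl1), Cdk1 (Ank3), Cdca3 (Usp5), Aurka (Cstf1) and Pttg1 (Slu7). These overlaps are of whole gene bodies, introns included, and whether exons overlap was not checked. The libraries were stranded, but the counting is not stated to use strand. Without strand, reads in exons that such a pair shares cannot be told apart. Hjurp overlaps Mroh2a, at 0.101 times its own mean count.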

How the data were processed

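Total RNA of full ventricles was depleted of ribosomal RNA and made into stranded libraries that were read in pairs of 150 bp. The authors deposited expected counts per Ensembl gene from RSEM, that is, estimated counts that need not be whole and are not normalized, for 16 samples in 1 table on GRCm39. The study's methods name Skewer and STAR as trimmer and aligner, while the submitters' processing notes name cutadapt 3.4, HISAT2 2.2.1 and RSEM 1.1.17, and the annotation release is not given in the sources used here.

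Symbols and positions were taken from GENCODE M39 on GRCm39 for 47772 of 51912 IDs. Unnamed IDs held 0.57% to 0.786% of the counts. Counts were rounded, and genes were kept where the 4 libraries of every group together held 10 counts or more. The quasi-likelihood test of edgeR 4.0.16 was fitted to all 16 libraries with TMM scaling and 1 coefficient per group, and p-values were adjusted by Benjamini-Hochberg over all 20159 genes. Calls needed an adjusted p under 0.1 and a log2 fold change of at least 0.5 in size. Standard errors came from the F statistic of that test. CPM were computed on the TMM-scaled total. Exact two-sided permutation tests used log2(CPM + 0.5), and with 4 against 4 libraries cannot go below 0.02857. Intervals cover the spread between libraries. The steps were tested on simulated data.

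The genes, lists and named genes were chosen with earlier results of these data known. Named in full were Cdc20, Ccnb1, Aurkb, Cdk1, Plk1, Aurka, Mki67, Top2a, Anln and Ect2, the highest and lowest KO MI against WT MI value of each function, and genes called in any comparison except KO MI against KO SH. Of other lists, at most the 3 lowest adjusted p in KO MI against WT MI were named. Alternatives were DESeq2 1.42.0, its size factors, other filters, stricter and looser limits, a robust fit, a sex term, a replicate block, fits to the compared groups alone and leaving out each library. Equal replicate numbers did not pair libraries (r between residuals of equal numbers -0.0623 to 0.112).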

Additional observations from a re-analysis of the deposited data

Results flagged for a closer look

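Each of the 4 groups was screened for a single library far from the other 3 in the genes named in full and in the summed level, 88 groups in all, and 2 stood out by Dixon's gap ratio at the 95% level. Chance alone gives about 1 in 20. Cdc20 was at 8.34 CPM in WT SH 4, where the other WT SH libraries held 7.27 to 7.41 CPM. Anln was at 36.7 CPM in WT SH 4, where the others held 29.9 to 30.5 CPM. WT SH 4 was the highest WT SH library for 46 of the 55 genes.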

How the results depend on the processing

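The count of genes called kept within 1.5 times its value under most alternatives. For KO MI against WT MI it was 1 and moved to 2 with a replicate block, where Spc24 was called at 0.54 (edgeR adjusted p = 0.0571), and ranged from 1 to 2 when single libraries were left out. For KO SH against WT SH it was 2, rose to 4 with a sex term and to 15 with no minimum fold, and ranged from 1 to 2. For WT MI against WT SH it was 4, was 25 with no minimum fold, and ranged from 3 (without WT SH 2 or WT MI 2) to 16 (without WT SH 4). It was 13 without WT MI 3. For KO MI against KO SH it was 49 and ranged from 33 (without KO MI 2) to 51. For the interaction it was 0, moved to 3 with DESeq2 and to 4 with the replicate block (against 3.42% of all genes), and ranged from 0 to 4 (4 without KO MI 7). Fitted to the compared groups alone, an adjusted p under 0.1 was reached by 39 in place of 25 genes in wild type and 23 in place of 15 in sham. The share of all genes by that limit is not given for these fits. With the minimum fold, genes of the list called went from 4 to 5 in wild type and stayed at 2 in sham. By that rule the calls over all genes, in either direction, went from 560 to 678 and from 1010 to 1197. Over all genes, calls higher in WT MI against WT SH were 430, with 480 without WT SH 4 and 353 without WT MI 3. In KO MI against KO SH they were 1070, with 698 without KO MI 2. Equal replicate numbers did not pair the libraries, so the block result is a count only. Without KO MI 2 and KO MI 7 together, an alternative chosen after seeing the skeletal muscle markers, Cdk1 was at -0.10, Top2a at -0.017 and Hmmr at -0.017 for KO MI against WT MI, and with the block Kif11 was at 0.077. None of these was called. Leaving out single libraries, that value changed sign for Ccnb1 (-0.11 to 0.17), Aurkb (-3.15e-05 to 0.23), Cdk1 (-0.12 to 0.17), Top2a (-0.10 to 0.12), Cdca3 (-0.14 to 0.0084), Kif11 (-0.16 to 0.046), Pttg1 (-0.069 to 0.088), Kif2c (-0.048 to 0.26) and Hmmr (-0.050 to 0.10). Hjurp stayed between -0.92 and -0.83. Depth limits Cdc25c, Ube2c and Ska3 most.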
